A study of Mus musculus with 20 samples.

Results

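The miR-99/100 and miR-125 families are 2 families of small RNAs that are encoded side by side with let-7 genes. The members described here were taken by name: mmu-miR-99a-5p, mmu-miR-99b-5p, mmu-miR-100-5p, mmu-miR-125a-5p, mmu-miR-125b-5p, mmu-miR-99a-3p, mmu-miR-99b-3p, mmu-miR-125a-3p, mmu-miR-125b-1-3p and mmu-miR-125b-2-3p. All 10 were found among the 1481 mature mouse microRNAs (miRNAs) of the deposited tables, and all 10 were in every table. Small RNA was sequenced from primary neurons that had been dissected from the cortex of mouse embryos on embryonic day 15 and cultured for 7 days. The neurons were labelled wild type or knockout for ciRS-7, a circular RNA made from the Cdr1as locus that is abundant in brain and carries many sites for miR-7. They then spent 12 h either in normoxia, with 25 mM glucose and 0.2 mM pyruvate in the medium, or in oxygen-glucose deprivation (OGD) at 1% O2 without that glucose and pyruvate, which imitates a lack of blood supply. Both conditions were held at 5% CO2 and 37 °C. Each of the 4 groups (wild type in normoxia, wild type in OGD, knockout in normoxia, knockout in OGD) had 5 libraries, given as biological replicates, 20 libraries in all. The labels give 1 strain name, C57BL/6N-Cdr1asem1Nikr, to the mice of both genotypes. They do not say whether a culture came from 1 embryo or from several.

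A miRNA is cut from a hairpin whose 2 arms give a 5p and a 3p strand. One strand, the guide, is usually kept in the Argonaute protein and directs it to messenger RNAs, while the other, the passenger, is mostly lost. Targets are recognised mainly through the seed, bases 2 to 8 of the strand. miR-125 is the vertebrate relative of the worm timing miRNA lin-4, and it is known for repressing Lin28 in neural cells as they mature. miR-99 and miR-100 are known for targets in the mTOR and insulin-like growth factor pathway. In mammals these miRNAs come from 3 loci that each also hold a let-7 hairpin, and let-7 is another family that rises as neurons mature.

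The 5 guide strands are shown because their likeness decides what a short read can tell apart. The sequences are RefSeq's mature miRNAs on mouse build GRCm38.p6, and the capitals mark the seed.
mmu-miR-99a-5p: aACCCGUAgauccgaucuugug
mmu-miR-100-5p: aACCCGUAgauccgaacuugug
mmu-miR-99b-5p: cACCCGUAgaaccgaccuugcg
mmu-miR-125b-5p: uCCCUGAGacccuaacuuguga
mmu-miR-125a-5p: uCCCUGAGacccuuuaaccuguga
Counted from 1 at the 5′ end, miR-100-5p differs from miR-99a-5p by the single substitution U16A. miR-99b-5p differs from miR-99a-5p by A1C, U11A, U16C and U21C. miR-125a-5p and miR-125b-5p share their first 13 bases. Of the 1248 measured miRNAs that matched a RefSeq sequence, the seed ACCCGUA was found in these 3 alone, and the seed CCCUGAG also in miR-351-5p and miR-6367. How the authors counted a read that fitted more than 1 of these strands is not given in the sources used here, so the level of miR-99a-5p relative to miR-100-5p is uncertain to that extent.

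The 5 passenger strands are shown because their seeds differ more than those of the guides, and because 2 of them tell apart the 2 hairpins that make the same miR-125b-5p.
mmu-miR-99a-3p: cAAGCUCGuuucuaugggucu
mmu-miR-99b-3p: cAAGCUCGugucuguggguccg
mmu-miR-125a-3p: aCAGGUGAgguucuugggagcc
mmu-miR-125b-1-3p: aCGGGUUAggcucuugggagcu
mmu-miR-125b-2-3p: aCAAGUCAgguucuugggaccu
miR-99a-3p and miR-99b-3p share a seed. The 3 passenger strands of the miR-125 hairpins have 3 different seeds, and miR-125b-2-3p differs from miR-125b-1-3p by G3A, G4A, U7C, C11U and G20C. The whole Mir125b-1 hairpin, at chr9:41581926-41582002 on the plus strand, is shown with both arms in capitals, since its 3p arm carries the main result below.
Mir125b-1: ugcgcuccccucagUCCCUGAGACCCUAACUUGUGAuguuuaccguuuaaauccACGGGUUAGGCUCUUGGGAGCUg

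All 3 loci lie on the plus strand of GRCm38.p6. The first spans 47.4 kb at chr16:77598940-77646339, from Mir99a through Mirlet7c-1 to Mir125b-2, in introns of the non-coding gene Mir99ahg. The second spans 0.683 kb at chr17:17830194-17830876 and holds Mir99b, Mirlet7e and Mir125a within the protein-coding gene Spaca6. There Mir125a overlaps an annotated exon and the other 2 hairpins are intronic. The third spans 50.6 kb at chr9:41531437-41582001, from Mir100 through Mirlet7a-2 to Mir125b-1, in introns of the non-coding genes 3110039I08Rik and Gm49317. Mir125b-1 there also lies in the sense-intronic transcript Gm28119. miR-125b-5p is made from both chromosome 9 and chromosome 16 and its reads cannot be assigned to either, whereas miR-125b-1-3p comes from chromosome 9 and miR-125b-2-3p from chromosome 16.

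The libraries held from 1160582 to 12477032 reads. Those from normoxia were deeper than those from OGD, with medians of 8208163 and 1992517 reads in wild type and 8854518 and 2552651 in knockout. A count of 3 reads, the most that a count of 0 allows, corresponded to 0.249 to 2.55 reads per 1000000 reads (CPM), an allowance for counting error only. Levels are given in CPM, with library sizes as the authors scaled them. The label of neurons was checked against miRNA markers, with no list for astrocytes or neural progenitors among them. The 5 neuronal markers, which include miR-124-3p and miR-9-5p, summed to between 292320 and 389307 CPM in each library. Most of that sum was miR-9-5p, and single neuronal markers moved with OGD. In wild type miR-124-3p was at 2739 to 4107 CPM in normoxia and 5160 to 6484 CPM in OGD, miR-138-5p at 211 to 250 and 369 to 541 CPM, and miR-128-3p at 45386 to 81262 and 34841 to 44367 CPM. In knockout miR-124-3p was at 3209 to 4075 and 4900 to 6105 CPM, miR-138-5p at 216 to 259 and 378 to 475 CPM, and miR-128-3p at 43501 to 80641 and 35878 to 48143 CPM. The first 2 were thus higher without overlap in both genotypes, and miR-128-3p was lower without overlap in wild type and with overlap in knockout. The 5 markers of microglia and blood summed to 0.867 to 5.59 CPM, the 3 of oligodendrocytes to 5.86 to 15.3 CPM and the 3 of endothelium and smooth muscle, such as miR-126a-3p, to 288 to 431 CPM. No marker was at 0 in all libraries. The oligodendrocyte sum ran from 5.86 to 12.0 CPM in the normoxic libraries and from 9.54 to 15.3 CPM in those from OGD, and the part of this and of the neuronal markers in the results was not tested. In these bulk libraries, fewer cells of a type and less RNA per cell cannot be told apart.

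The guides were among the most abundant miRNAs of these neurons. Together the 5 guides made up 15.2% ± 1.1 of the reads (SD, n = 5) in wild-type normoxia and 15.5% ± 1.18 in wild-type OGD. In knockout neurons they made up 14.7% ± 0.645 in normoxia and 14.6% ± 1.14 in OGD. The 3 guides with the miR-99/100 seed took 11.2% to 12.2% of the reads as group means, and the 2 with the miR-125 seed took 3.26% to 3.54%. The 5 passenger strands together held from 0.11% to 0.153% as group means.

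mmu-miR-99a-5p, from the chromosome 16 locus, was the second most abundant miRNA by mean level in each of the 4 groups. In wild-type normoxia its 5 libraries gave 88996, 105242, 95131, 94546 and 113506 CPM, and in wild-type OGD 110026, 98892, 95938, 98732 and 116462 CPM. In knockout neurons it measured 94694, 88148, 87069, 94391 and 98648 CPM in normoxia and 80745, 90760, 94378, 96257 and 101739 CPM in OGD. The 4 groups overlapped. Within its seed family miR-99a-5p made up 83.2% to 85.1% of the reads as group means, with miR-100-5p next at 9.79% to 11% and miR-99b-5p at 5.14% to 6.2%.

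mmu-miR-125b-5p, which both Mir125b hairpins give, was eighth in every group. Wild-type libraries gave 39475, 33474, 31467, 28802 and 24902 CPM in normoxia and 35623, 30656, 25049, 26879 and 33390 CPM in OGD. Knockout libraries gave 37049, 29184, 33533, 31266 and 29386 CPM in normoxia and 31343, 30870, 31675, 33096 and 28241 CPM in OGD. Again all groups overlapped, and the widest spread was in wild-type normoxia, with a coefficient of variation of 17.2%. It made up 91.3% to 92.6% of the reads of the 2 miR-125 guides as group means.

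The other 3 guides were lower. miR-100-5p had group means of 11469 to 12253 CPM, miR-99b-5p of 6272 to 7100 CPM and miR-125a-5p of 2403 to 3046 CPM. The order miR-99a-5p, miR-125b-5p, miR-100-5p, miR-99b-5p, miR-125a-5p held in 5 of 5 libraries of each group. No 2 neighbours in that order had overlapping ranges within a group. Guides of 1 locus were not at equal levels. On chromosome 17 miR-99b-5p was above its neighbour miR-125a-5p by a log2 ratio of 1.19 to 1.39 as group means.

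**Figure D1:**
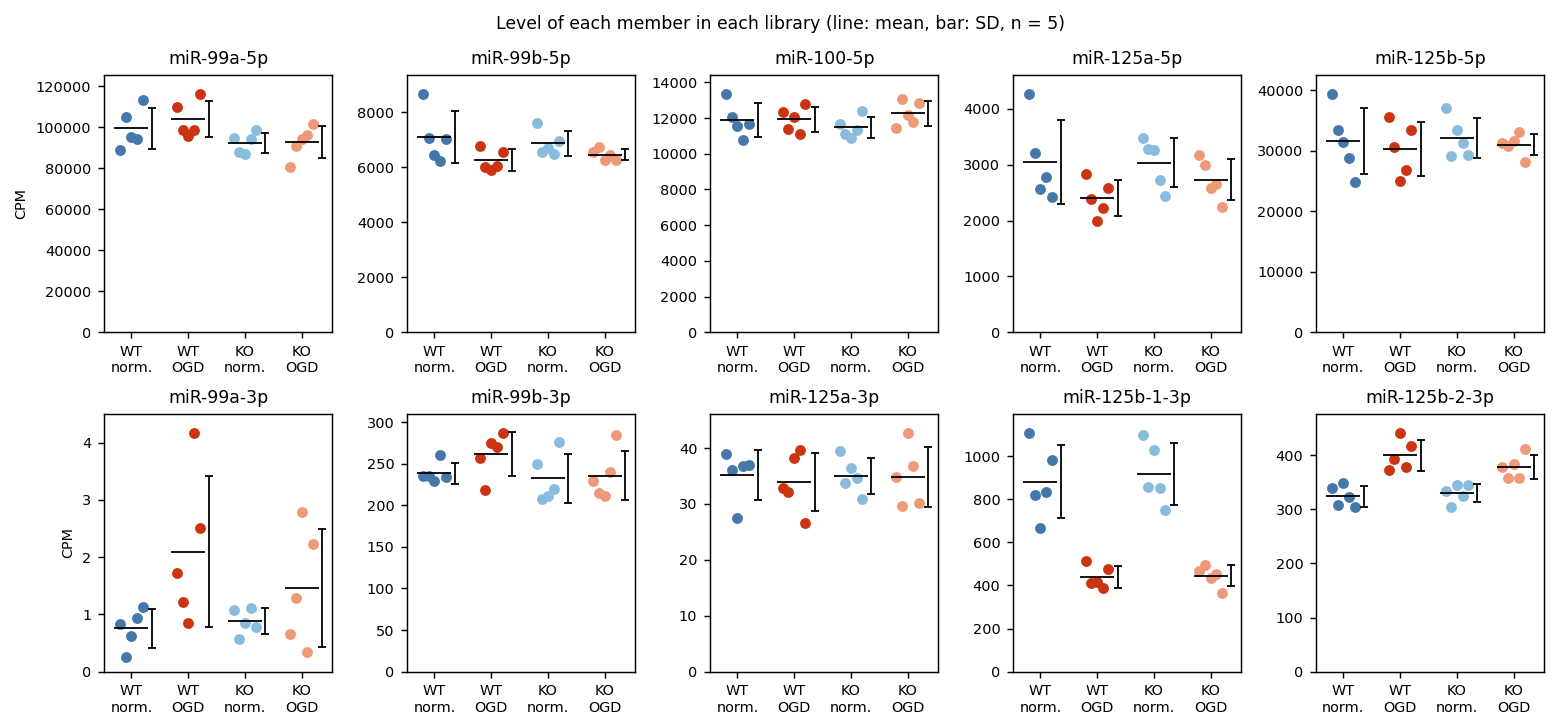
The level of each of the 10 members in CPM (vertical axis from 0, with its own scale in each panel) in the 20 libraries, by group; points are libraries, lines means and bars SD (n = 5). The panel of miR-125b-1-3p is the one in which both OGD groups, at 367 to 512 CPM, lie wholly below both normoxic groups, at 666 to 1107 CPM.

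The first question of the design is what 12 h of OGD did in neurons of each genotype. mmu-miR-125b-1-3p, the passenger strand of the chromosome 9 hairpin, fell to 0.506 times its normoxic level in wild type and to 0.486 times in knockout. mmu-miR-125b-2-3p, the passenger strand of the chromosome 16 hairpin, rose in wild type under the authors' library scaling. With quantile normalization it was not called, and it fell where libraries were centred on their median miRNA, which had few reads. None of the 5 guides passed the test in either genotype with all libraries, the authors' scaling and no pairing of libraries by replicate number. Each comparison was tested across all miRNAs of its table with limma on log2(CPM + 0.5), with Benjamini-Hochberg adjustment, and a miRNA is called where the adjusted p is under 0.05.

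In wild type, 2 of 10 members were called, 1 higher and 1 lower, where 341 of 1478 miRNAs (23.1%) were called, 276 of them higher (18.7%) and 65 lower (4.4%). In knockout, 1 of 10 members was called, lower, where 363 of 1479 miRNAs (24.5%) were called, 278 higher (18.8%) and 85 lower (5.75%). These splits are those of the authors' library scaling, and they depend on it. With CPM from the total of recovered reads they were 281 higher and 63 lower in wild type and 267 and 87 in knockout, while in 3 of the other 4 scalings described below the lower calls outnumbered the higher ones in both genotypes. Of the 9 members whose mean log2 CPM was 3 or more, 2 had groups that did not overlap in each genotype, miR-125b-1-3p and miR-125b-2-3p. The same held for 35.3% of the 425 miRNAs at that level in wild type and 44.8% of 420 in knockout. The members' share was thus no larger than that of all miRNAs. The median log2 fold change of these 9 was -0.06 in wild type and -0.02 in knockout, beside 0.22 and 0.20 for all miRNAs at that level.

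miR-125b-1-3p was measured at 1107, 817, 666, 831 and 983 CPM in the wild-type normoxic libraries and at 512, 413, 418, 387 and 475 CPM in those from wild-type OGD. In knockout it was measured at 1099, 858, 1030, 853 and 748 CPM in normoxia and at 468, 496, 433, 455 and 367 CPM in OGD. In both genotypes every OGD library lay below every normoxic library. The mean went from 881 ± 169 to 441 ± 51.1 CPM (SD, n = 5 each) in wild type, lower in 5 of 5 OGD libraries. The limma log2 fold change was -0.98 (SE 0.13, 95% interval -1.25 to -0.71, adjusted p = 1.58e-05), which is 0.506 times. In knockout the mean went from 918 ± 143 to 444 ± 48.5 CPM. The limma log2 fold change there was -1.04 (SE 0.11, 95% interval -1.27 to -0.81, adjusted p = 2.51e-06), which is 0.486 times. Each value rested on at least 492 reads. The fall was of the same size once all libraries were thinned to the reads of the shallowest, at -0.96 in wild type and -1.03 in knockout on the log2 scale. It was larger where libraries were centred on their median miRNA, at -1.74 and -1.56, or on the more abundant miRNAs, at -1.54 and -1.55.

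The guide from the same hairpin was not called. miR-125b-5p had a log2 fold change of -0.06 in wild type (95% interval -0.31 to 0.20, limma adjusted p = 0.764) and of -0.04 in knockout (95% interval -0.22 to 0.13, limma adjusted p = 0.739). Since Mir125b-2 makes the same guide, these values are for the sum of 2 hairpins. The intervals of miR-125b-5p and miR-125b-1-3p did not overlap in either genotype, but the 2 arms of Mir125b-1 could not be compared alone.

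miR-125b-2-3p was measured at 339, 308, 348, 322 and 304 CPM in the wild-type normoxic libraries and at 372, 392, 441, 378 and 417 CPM in those from wild-type OGD. The knockout libraries gave 333, 304, 344, 325 and 345 CPM in normoxia and 378, 358, 384, 357 and 412 CPM in OGD. The OGD libraries lay above the normoxic ones in both genotypes without overlap. The log2 fold change was 0.30 in wild type (SE 0.10, limma adjusted p = 0.0373) and 0.19 in knockout (SE 0.08, limma adjusted p = 0.0899, not called). The wild-type call was lost without wild-type normoxic replicate 2 (adjusted p = 0.102) or replicate 4 (adjusted p = 0.0679). It was lost with quantile normalization as well, at 0.12 (adjusted p = 0.402), and the sign turned where libraries were centred on their median miRNA, at -0.45. Scaled by the median deviation described below, it was 0.11 (limma adjusted p = 0.523).

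The ratio of the 2 passenger strands of miR-125b within a library does not depend on how libraries are scaled. In wild type miR-125b-1-3p had 3.26, 2.65, 1.91, 2.58 and 3.24 times the reads of miR-125b-2-3p in normoxia, and 1.38, 1.06, 0.948, 1.03 and 1.14 times in OGD. In knockout the ratio was 3.3, 2.83, 3.0, 2.62 and 2.17 in normoxia and 1.24, 1.38, 1.13, 1.27 and 0.892 in OGD. The chromosome 9 strand was thus ahead in all 10 normoxic libraries, and the 2 strands were about level in OGD. The mean log2 ratio fell by 1.28 in wild type and by 1.24 in knockout, each with p = 0.00794 in an exact two-sided permutation test, the smallest that 5 against 5 libraries can give. Over the 60 ratio tests made (15 ratios in 4 comparisons) each of these exact permutation tests had a Benjamini-Hochberg adjusted value of 0.0476, and the groups did not overlap. All 10 ratio tests called below share this smallest p, so their adjusted value depends on how many reach it. With fewer than 10 of the 60 at this p, none would pass the threshold of 0.05. Among the 10 are ratios with miR-99a-3p, which had only 1 to 13 reads in each library, so every ratio call leans on them. It rose to at most 0.0595 for this ratio in 11 of 20 fits that left out 1 library: wild-type normoxic replicate 2, any wild-type OGD library or any knockout normoxic library. The difference itself stayed between -1.40 and -1.21 in wild type and between -1.32 and -1.14 in knockout in those 20 exact permutation fits.

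The remaining 3 passenger strands were not called by limma under the authors' scaling. miR-99b-3p, from chromosome 17, had means of 239 and 262 CPM in wild-type normoxia and OGD and of 233 and 236 CPM in knockout. miR-125a-3p, from the same locus, had means of 35.2 and 33.9 CPM in wild type and 35.0 and 34.8 CPM in knockout. Its log2 fold change was -0.06 in wild type (limma adjusted p = 0.824), but -0.73 with quantile normalization (limma adjusted p = 0.00394). In knockout it was -0.02 (limma adjusted p = 0.941). The alternatives there ran from -0.55 to -0.004, and 2 of 12 called it. miR-99a-3p was near the limit of detection, with 1 to 13 reads in each library and group means of 0.756 to 2.09 CPM, so no fold change between groups is given for it. In wild type limma voom called miR-99a-3p higher (adjusted p = 0.0136), and limma on the deposited values called miR-99a-3p (adjusted p = 0.0497) and miR-99b-3p (adjusted p = 0.0112) higher. The log2 ratio of miR-99a-5p to miR-99a-3p had group means of 15.6 to 17, against 4.59 to 4.89 for miR-99b-5p to miR-99b-3p and 6.14 to 6.43 for the arms of miR-125a.

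**Figure D2:**
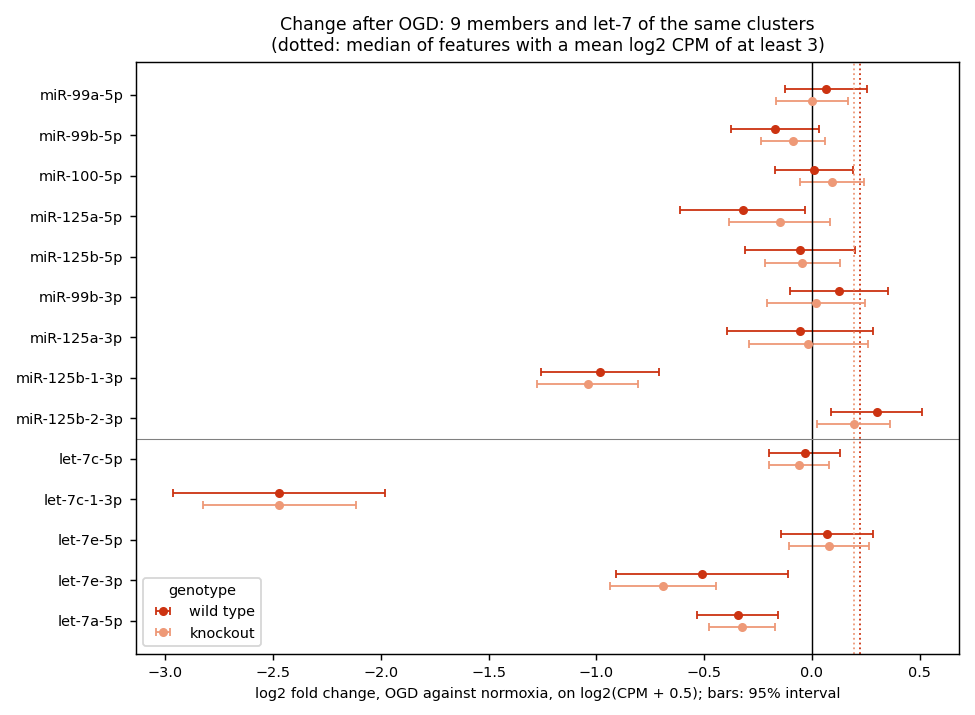
Log2 fold change of OGD against normoxia on the scale of log2(CPM + 0.5) (horizontal axis) for 9 members (miR-99a-3p, with its few reads, is left out) and, below the grey line, for let-7 miRNAs of the same loci, with 95% intervals from limma, in wild type and knockout. Dotted lines mark the median of all miRNAs whose mean log2 CPM was 3 or more, at 0.22 and 0.20; miR-125b-1-3p at -0.98 and -1.04 and let-7c-1-3p at -2.47 stand left of the rest.

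For the guides, the intervals give the size of change that the data allow. In wild type, miR-99a-5p had a log2 fold change of 0.07 (95% interval -0.13 to 0.26) and miR-100-5p of 0.01 (95% interval -0.17 to 0.19). miR-99b-5p had -0.17 (95% interval -0.38 to 0.03). miR-125a-5p had the lowest value of the guides, -0.32 (95% interval -0.61 to -0.03, limma adjusted p = 0.106). In knockout the 5 guides lay between -0.15 for miR-125a-5p and 0.10 for miR-100-5p. miR-125a-5p was at 4269, 3213, 2556, 2774 and 2420 CPM in wild-type normoxia and at 2830, 2379, 1996, 2227 and 2584 CPM in wild-type OGD, so the groups overlapped. Without wild-type normoxic replicate 5, which had the lowest level of that group, the value was -0.40 with a limma adjusted p of 0.0336, and with quantile normalization it was -0.38 with a limma adjusted p of 0.0432. With libraries paired by replicate number, a pairing that the labels do not give, miR-125a-5p was also called lower in wild type, as given at the end.

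These values depend on the library scaling, and so does the direction of the other miRNAs called. With libraries centred on their median miRNA, 90 were called higher and 375 lower in wild type and 101 and 263 in knockout. That median rests on few reads. In wild-type normoxia miR-99a-3p, at rank 703 of 1481 miRNAs by mean, was at 0.756 CPM, and miR-10a-5p, at rank 790, was at 0.473 CPM. Centred on the more abundant miRNAs, those whose mean log2 CPM was 3 or more, the counts were 108 and 265 in wild type and 112 and 324 in knockout. With quantile normalization they were 141 and 191, and 141 and 186. With each library scaled by the median deviation of the more abundant miRNAs from their own means, they were 182 and 105, and 176 and 134. When each library was centred on the median of its miRNAs, the OGD fold changes moved by 0.75 (log2) in wild type and by 0.52 in knockout. Centred on the more abundant miRNAs, they moved by 0.56 and 0.51, which is the shift of the libraries' median level and not the median fold change of those miRNAs (0.22 and 0.20). Under the first, 9 of 10 members were called in wild type and 6 in knockout, and under the second 8 and 9, every one of them lower. The 5 guides were among the members called lower in wild type under both, miR-99a-5p at -0.69 and -0.50. Scaling by the median deviation, chosen after seeing the data, moved the OGD fold changes by only 0.19 and 0.20. Under it miR-99b-5p (-0.36 in wild type and -0.28 in knockout) and miR-125a-5p (-0.51 and -0.35) were called lower in both genotypes and miR-125b-5p in knockout (-0.24, limma adjusted p = 0.0468), whereas miR-99a-5p (-0.13 and -0.20) and miR-100-5p (-0.18 and -0.10) were not called. In wild type the guides' joint share of all reads ran from 14.3% to 16.9% in normoxia and from 14.3% to 17.2% in OGD.

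**Figure D3:**
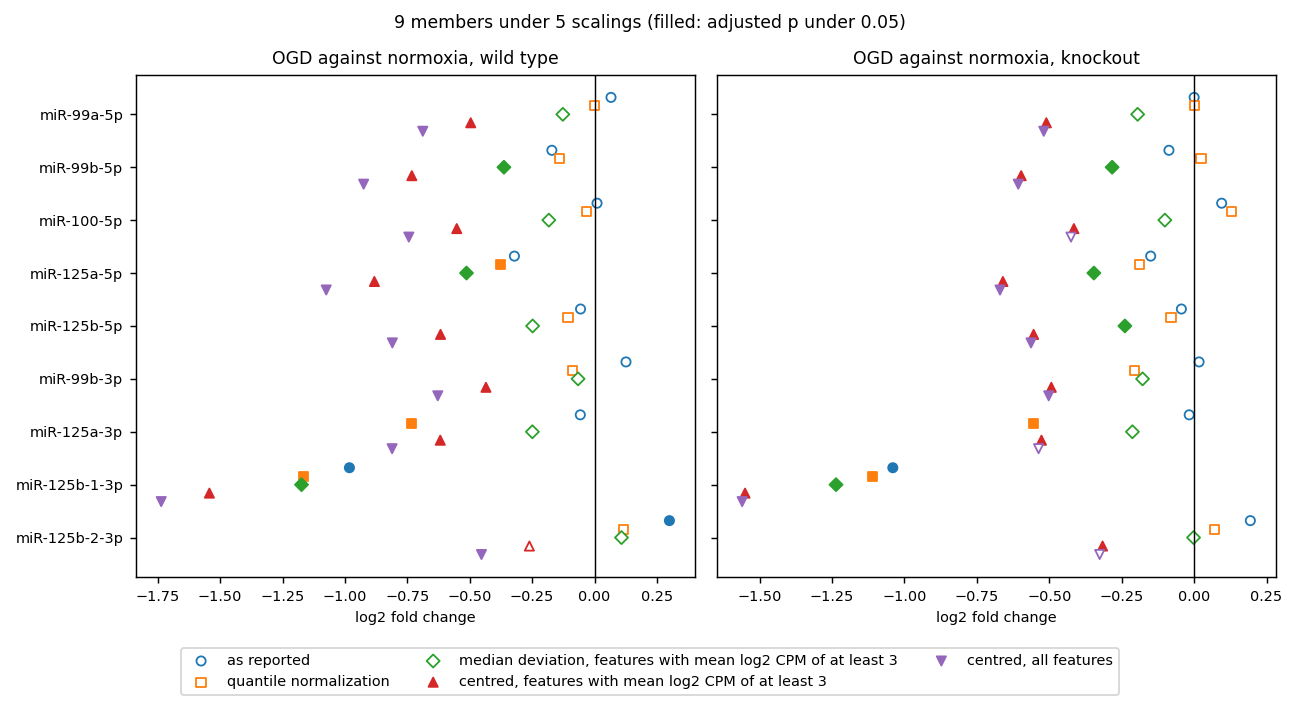
Log2 fold change of OGD against normoxia (horizontal axis) for 9 members (without miR-99a-3p) under 5 scalings, wild type left and knockout right; filled symbols have an adjusted p under 0.05. miR-125b-1-3p is filled and left of 0 under all 5 in both panels, whereas the guides are unfilled and between -0.32 and 0.10 as reported and left of 0 in both centred versions.

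The let-7 strands of the same loci were described on the same scale. The guides let-7c-5p, made on chromosomes 16 and 15, and let-7e-5p, made on chromosome 17, were not called in either genotype, with log2 fold changes between -0.06 and 0.08. Centred on the median miRNA, both were called lower in both genotypes, let-7c-5p at -0.79 in wild type and -0.58 in knockout and let-7e-5p at -0.68 and -0.44. Scaled by the median deviation, let-7c-5p was called lower in both, at -0.23 and -0.25. let-7a-5p, which another locus on chromosome 13 also makes, fell by 0.34 in wild type (limma adjusted p = 0.00896) and by 0.33 in knockout (limma adjusted p = 0.00274). With quantile normalization its adjusted p in limma was 0.101 and 0.0676. let-7c-1-3p, the passenger strand that lies between Mir99a and Mir125b-2, fell further. It was at 54.4 to 94.9 CPM in wild-type normoxia and 6.95 to 19.7 CPM in wild-type OGD, and at 74.3 to 93.6 and 8.36 to 16.3 CPM in knockout. The log2 fold change was -2.47 in both genotypes (limma adjusted p = 3.94e-07 in wild type and 3.47e-08 in knockout).

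Ratios within a library, which need no scaling, showed that passenger strands of 1 locus changed by different amounts. The log2 ratio of miR-125b-2-3p to let-7c-1-3p, both from chromosome 16, was 2.79 higher in OGD in wild type and 2.69 higher in knockout (adjusted p = 0.0476 for each, exact permutation test, no overlap). The ratio of miR-99a-3p to let-7c-1-3p was also higher, by 3.95 and 3.07 (adjusted p = 0.0476 for each, exact permutation test), but rests on 1 to 13 reads of miR-99a-3p. On chromosome 17, let-7e-3p had means of 28.2 and 19.4 CPM in wild-type normoxia and OGD (log2 fold change -0.51, limma adjusted p = 0.0611). It was called lower in 9 of 12 alternatives, with limma adjusted p from 0.000134 to 0.0618. In knockout it fell from 31.8 to 19.5 CPM (-0.69, limma adjusted p = 0.000265). The ratio of miR-99b-3p to let-7e-3p was 0.71 higher in OGD in knockout (adjusted p = 0.0476, exact permutation test) and 0.64 higher in wild type (adjusted p = 0.0733, exact permutation test). The ratio of miR-125a-3p to let-7e-3p was 0.68 higher in knockout (adjusted p = 0.0476, exact permutation test) and 0.46 higher in wild type (adjusted p = 0.167, exact permutation test).

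Among ratios of guides, 1 was called. miR-99a-5p to miR-99b-5p, 2 strands with the same seed from different loci, was 0.24 higher in log2 in wild-type OGD (adjusted p = 0.0476, exact permutation test, no overlap) and 0.09 higher in knockout (adjusted p = 0.553, exact permutation test). Without wild-type normoxic replicate 1, which had the lowest ratio of its group, the wild-type difference was 0.12. The 4 ratios between guides of 1 locus were not called in either genotype, nor were miR-99a-5p to miR-100-5p and miR-125a-5p to miR-125b-5p. The tenth ratio called was miR-99a-5p to miR-99a-3p in wild type, -1.39 (adjusted p = 0.0476, exact permutation test), which has the same few reads of miR-99a-3p. Once libraries were thinned to the reads of the shallowest it was -0.52 (adjusted p = 0.771, exact permutation test). In all, 10 of 60 ratio tests were called, 7 higher and 3 lower, each in a comparison of OGD with normoxia.

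**Figure D4:**
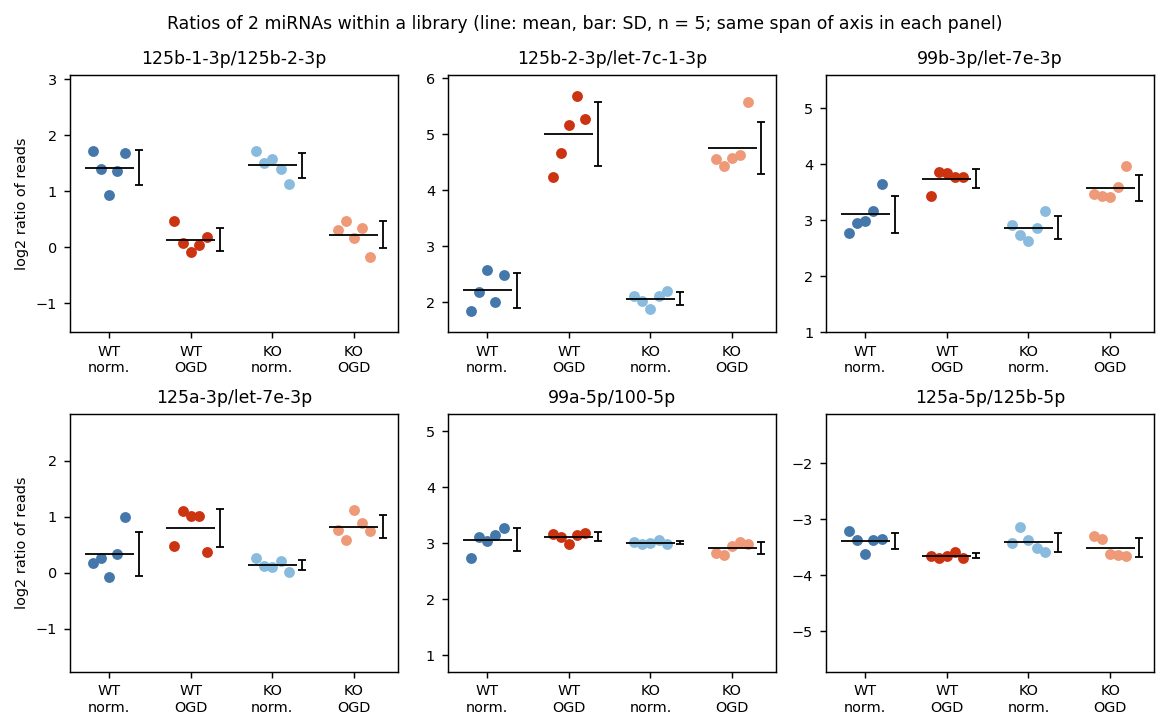
Log2 ratio of the reads of 2 miRNAs within each library (vertical axis, with the same span in each panel) for 6 of the 15 ratios; points are libraries, lines means and bars SD (n = 5). The ratio of the 2 miR-125b passenger strands is lower and that of miR-125b-2-3p to let-7c-1-3p higher in both OGD groups without overlap, while the 2 ratios of guides shown, miR-99a-5p to miR-100-5p and miR-125a-5p to miR-125b-5p, overlap.

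The second question is whether the absence of ciRS-7 altered these miRNAs, and the third is whether it altered their response to OGD. No member was called between knockout and wild type. In normoxia 0 of 1481 miRNAs (0%) were called by limma, 47 had an unadjusted p under 0.05, and limma voom on the recovered reads called 0. In OGD 0 of 1481 (0%) were called, 108 had an unadjusted p under 0.05, and limma voom called 0. Without knockout OGD replicate 5, 22 miRNAs were called lower in knockout, none of them a member. On the deposited values as they stand, limma called 33 miRNAs in normoxia and 72 in OGD, none of them a member. In those values the highest and lowest library of each group are limited, as described below.

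The members' log2 differences between genotypes in normoxia ran, miR-99a-3p aside, from -0.10 for miR-99a-5p (95% interval -0.29 to 0.09) to 0.07 for miR-125b-1-3p. In OGD, miR-99a-5p was at -0.17 (95% interval -0.35 to 0.02, limma adjusted p = 0.695) and miR-125a-5p at 0.18 (95% interval -0.03 to 0.40, limma adjusted p = 0.704). The strand that OGD lowered, miR-125b-1-3p, had a 95% interval of -0.23 to 0.36 in normoxia and a difference of 0.01 in OGD (95% interval -0.21 to 0.23). No ratio was called between genotypes. The nearest was miR-99a-5p to miR-100-5p in OGD, 0.20 lower in knockout in log2 (adjusted p = 0.0733, exact permutation test).

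The response to OGD was compared between genotypes in 1 limma fit over the 20 libraries. Of 1481 miRNAs 0 (0%) were called, 74 had an unadjusted p under 0.05, and limma voom called 0. For miR-125b-1-3p the response in knockout minus that in wild type was -0.06 (95% interval -0.42 to 0.30), and for miR-125b-2-3p it was -0.11 (95% interval -0.35 to 0.14). For the 5 guides it ran from -0.07 for miR-99a-5p to 0.17 for miR-125a-5p (95% interval -0.21 to 0.56). The 2 comparisons of OGD share no library, but each shares its libraries with the comparisons of genotypes.

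Among the wild-type normoxic libraries the members did not vary in 1 direction. Replicate 1 had the highest miR-125a-5p, miR-125b-5p, miR-99b-5p, miR-100-5p and miR-125b-1-3p of its group but the lowest miR-99a-5p. Replicate 5 had the highest miR-99a-5p and the lowest miR-125a-5p and miR-125b-5p. The call of miR-125b-1-3p held in 10 of 10 fits that each left out 1 library in both genotypes, with log2 fold changes of -1.08 to -0.89 in wild type and -1.11 to -0.97 in knockout.

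The miRNAs whose levels ran most like each guide's over the 20 libraries were found by the root mean square difference of log2 levels, each centred on its own mean, among 414 miRNAs. miR-100-5p was followed most closely, by miR-106b-3p at 0.08 and miR-185-5p at 0.09, where the median over all was 0.31. miR-185-5p was also second for miR-125b-5p at 0.13, after let-7d-5p at 0.12. miR-99b-5p had miR-532-5p and miR-30e-3p, both at 0.10, and miR-99a-5p had miR-872-5p and miR-24-3p, both at 0.12. For miR-125a-5p they were miR-191-5p at 0.10 and miR-484 at 0.15. No guide had a let-7 strand of its own locus among its nearest 2. The related miR-10a-5p and miR-10b-5p, which have the seed ACCCUGU, had 0 to 29 reads in each library, too few for a statement on change.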

How the data were processed

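Small RNA libraries were made with a NEBNext small RNA kit from TRIzol-extracted RNA, per the labels' protocols. The genome build was mm10, per the submitters' processing notes. Aligner, counting and miRBase release are not given in the sources used here. The authors deposited 6 tables, 1 for each pair of groups, whose values are treated as a score. They exceed the largest log2 CPM possible (19.9). From the values, each is a read count times a library factor, raised to a power of 0.106 to 0.118. The highest and lowest of each group of 5 are limited at the quantiles 0.16 and 0.84. Undoing both steps gave whole reads (within 0.05) for 100% of values. The design had foreseen this, and CPM were computed from these reads and the authors' library factors. Replicates differed beyond sampling noise, with chi-square values of at least 16.5 per degree of freedom. P-values measure the spread between these cultures.

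Tests used limma 3.58.1 in R 4.3.3 (mean-variance trend, pseudocount 0.5 CPM, threshold 0.05, all miRNAs of a table). Ratios used reads + 0.5 and exact permutation tests. The scripts were tested on simulated data. Members were all named, and so were the let-7 strands of their loci, miR-10a-5p and miR-10b-5p, and the 2 miRNAs most like each guide. The ratio with let-7a-2-3p was not analysed here. Members and lists were chosen with earlier results of these data known. Alternatives were other scalings, pseudocounts, filters, models, thinning, a replicate block and leaving out libraries.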

Additional observations from a re-analysis of the deposited data

Results flagged for a closer look

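Of 100 groups of 5 libraries checked for a library far from the rest, 7 held one, where chance alone gives about 1 in 20. A library was counted where its gap to the nearest of the others took more than 0.71 of the group's range. In wild-type normoxia, replicate 4 had miR-99b-3p at 261 CPM, where the nearest library had 235 CPM, and replicate 3 had miR-125a-3p at 27.4 CPM, where the nearest had 36 CPM. The other 5 were log2 ratios. In wild-type normoxia, miR-99a-5p to miR-99b-5p was 3.36 in replicate 1, with the nearest at 3.88. In wild-type OGD, the same ratio was 4.15 in replicate 5, with the nearest at 4.04. miR-125a-5p to let-7e-5p was 0.08 in wild-type OGD replicate 3, with the nearest at 0.55, and miR-99b-3p to let-7e-3p was 3.44 in wild-type OGD replicate 1, with the nearest at 3.77. miR-125b-2-3p to let-7c-1-3p was 5.58 in knockout OGD replicate 5, with the nearest at 4.63. That library lies on the same side of the normoxic libraries as the other knockout OGD libraries.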

How the results depend on the processing

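The fall of miR-125b-1-3p in OGD kept its direction and its call in 12 of 12 alternatives in both genotypes. Members called in OGD against normoxia numbered 2 in wild type and 1 in knockout as reported. With libraries centred on their median they numbered 9 and 6, and centred on miRNAs whose mean log2 CPM was 3 or more (chosen after seeing the data) 8 and 9. Scaled by the median deviation of those miRNAs (also chosen after seeing the data) they numbered 3 and 4. On the deposited values they numbered 4 and 2, and in knockout 2 with quantile normalization and 2 of 9 when only miRNAs at that level were tested. Over all miRNAs, 477 of 1478 in wild type and 476 of 1479 in knockout were called on the deposited values. In knockout 327 of 1479 were called with quantile normalization and 260 of 420 at that level. All miRNAs called in wild type numbered 223 with that filter, which tests fewer miRNAs, and 693 with limma voom, and 784 in knockout with limma voom. On the deposited values 33 were called between genotypes in normoxia and 72 in OGD. The cause was not tested.

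Signs of a value called before or after turned in the 2 centrings alone (median of all miRNAs first). In wild type miR-99a-5p came to -0.69 and -0.50, miR-100-5p to -0.74 and -0.55, miR-99b-3p to -0.63 and -0.43, and let-7e-5p to -0.68 and -0.49. miR-125b-2-3p, called as reported, came to -0.45 and, not called, -0.26. In knockout miR-99b-3p came to -0.50 and -0.49, let-7e-5p to -0.44 and -0.43, and, in the second alone, miR-100-5p to -0.42 and miR-125b-2-3p to -0.32. Another 93 changes of sign were between values that passed no test.

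With 1 library left out, calls in wild type ran from 262 to 341 miRNAs and 1 to 3 members, and in knockout from 293 to 372 miRNAs with 1 member throughout. Between genotypes they ran from 0 to 22 in OGD, and 0 to 1 for the interaction. Ratio calls ran from 0 to 11. They were 0 in 11 of 20 such fits, in which fewer than 10 tests reached the smallest exact p, so that the adjusted value of all of them passed the threshold of 0.05 upward. The replicate numbers were not taken to pair the libraries, since nothing in the labels says so and not every pair was positive, with correlations of deviations of -0.17 to 0.66 in wild type and -0.21 to 0.49 in knockout. With a replicate block, miR-125b-1-3p had adjusted p of 1.5e-07 and 9.17e-09, and 3 members were called in wild type, miR-125a-5p (-0.32, adjusted p = 0.0128) among them, and 1 in knockout. Calls over all miRNAs were 389 and 403. In wild type 4 of 5 libraries and in knockout 3 of 5 correlated best with their own number, a hint of pairing that comes from the data and not from the design. Depth limits miR-99a-3p, whose 1 to 13 reads a library lie near the floor of 3.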
